A study of Mus musculus with 2 samples.

Results

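The genes described here carry out antigen presentation by MHC class I molecules. They are the heavy chain genes H2-K1, H2-D1, H2-T23 and H2-M3, the peptide transporter genes Tap1 and Tap2, the tapasin gene Tapbp, the immunoproteasome genes Psmb9 and Psmb8, and the regulator gene Nlrc5. They form a list of names with no limit on signal, drawn up with earlier results of these data known, and are 10 of the 21938 protein-coding genes that the GENCODE vM21 annotation places on the reference chromosomes of mm10. Every peak that overlapped a gene body or the 5 kb on either side of it was taken, including the promoter that Tap1 and Psmb9 share. This gave 16 of 25343 peaks in the library prepared without density gradient centrifugation (the no-gradient library) and 38 of 89382 peaks in the 50 µL library. A peak near 2 neighbouring genes was counted once.

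The assay was scFFPE-ATAC, in which the transposase Tn5 inserts barcoded adaptors into open DNA of nuclei from formalin-fixed, paraffin-embedded (FFPE) tissue and the tagged DNA is copied by T7 in vitro transcription before sequencing. Both libraries came from FFPE spleen of C57BL/6J mice, aged 8 weeks according to the methods. The nuclei of 1 library did not pass through density gradient centrifugation, a step that separates nuclei from debris, and the other library was made with the Tn5 reaction in 50 µL in place of the standard 100 µL. Whether the nuclei of the 50 µL library passed the gradient, and in which volume the other library was tagmented, is not stated for each library by itself. With a single library per condition no difference between them was tested, and the peaks were called over all cells of a library, so that fewer open cells and fewer reads per cell cannot be told apart.

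The depth of the libraries is unknown, because a peak list holds no count of reads or cells. The lists covered 8.81 Mb in the no-gradient library and 37.999 Mb in the 50 µL library, with a median fold enrichment of 5.24 in the shorter list and 3.29 in the longer one. Fold enrichment is the height of a peak over the local background, as the peak caller MACS2 estimated it. Like the q-value it moves with depth, so heights were compared only within a list. They are given as fold enrichment and as the percentile of a peak's −log10 q among all peaks of its own list, and the measures do not always rank peaks alike. Of 8 genes each, 3 B cell markers, 3 T cell markers, 2 myeloid markers and 0 genes of liver and brain had a promoter peak in the no-gradient library. The same was true of 8 B cell markers, 7 T cell markers, 6 myeloid markers and 1 gene of liver and brain in the 50 µL library. The 0 of 8 allows a share of up to 36.9% (exact Clopper-Pearson 95% interval). Over all protein-coding genes the share with a promoter peak was 43.7% in the no-gradient library and 56.6% in the 50 µL library. Of the T cell markers, Cd3d, Cd5 and Lck had a promoter peak in both lists, and Cd3g had none in either. Cd3e, Cd2, Cd28 and Bcl11b had one in the 50 µL list only. That of Cd3e, which codes for the epsilon chain of CD3, was weak there, with a fold enrichment of 2.52 and a percentile of 21.4.

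MHC class I molecules show peptides from inside a cell to CD8 T cells. The proteasome cuts proteins, the TAP transporter carries the fragments into the endoplasmic reticulum, and tapasin holds an empty class I molecule beside the transporter until a peptide has bound. All nucleated cells use this pathway at some level, lymphocytes strongly, and interferons raise its expression. Class I promoters are known for an ordered set of elements: an enhancer A site bound by NF-κB, an interferon-stimulated element bound by IRF proteins, and a module that ends in a cyclic AMP response element (CRE)-like box and a CCAAT box, on which RFX, CREB and NF-Y proteins assemble and recruit NLRC5.

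The promoters of the 4 heavy chain genes and of the shared Tap1 and Psmb9 locus are shown because the peaks described here lie on them and because they let these elements be read directly. They are RefSeq promoters of GRCm38.p6, the assembly of mm10, each from 250 bases before to 50 bases after a start site, in the direction of the gene. Both GRCm38.p6 and mm10 give the same coordinates: H2-K1 chr17:34000298-34000597 (minus strand), H2-D1 chr17:35262844-35263143 (plus), H2-M3 chr17:37269984-37270283 (plus), H2-T23 chr17:36032652-36032951 (minus) and Tap1 chr17:34187306-34187605 (plus). Capitals mark matches, on either strand, to the κB form of enhancer A (GGGNATTCCC), 2 forms of an IRF site (GAAANNGAAA and AAGTGAAA), 2 forms of a CRE (TGACGNCA and TGACGC) and the CCAAT box (CCAAT, or ATTGG where it lies on the opposite strand). The forms AAGTGAAA and TGACGC were added after the class I promoters had been read. The paired forms can overlap each other.
H2-K1: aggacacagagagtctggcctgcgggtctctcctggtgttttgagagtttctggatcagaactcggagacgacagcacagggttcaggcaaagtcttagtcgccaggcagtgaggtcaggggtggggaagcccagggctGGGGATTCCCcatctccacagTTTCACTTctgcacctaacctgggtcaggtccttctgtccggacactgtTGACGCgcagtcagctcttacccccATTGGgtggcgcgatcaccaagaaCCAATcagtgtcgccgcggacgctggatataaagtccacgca
H2-D1: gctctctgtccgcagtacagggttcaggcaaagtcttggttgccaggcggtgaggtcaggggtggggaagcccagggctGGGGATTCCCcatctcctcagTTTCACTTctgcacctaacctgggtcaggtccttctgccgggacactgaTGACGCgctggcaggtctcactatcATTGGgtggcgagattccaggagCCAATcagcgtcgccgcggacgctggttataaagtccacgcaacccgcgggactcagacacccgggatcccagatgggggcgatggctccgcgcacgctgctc
H2-M3: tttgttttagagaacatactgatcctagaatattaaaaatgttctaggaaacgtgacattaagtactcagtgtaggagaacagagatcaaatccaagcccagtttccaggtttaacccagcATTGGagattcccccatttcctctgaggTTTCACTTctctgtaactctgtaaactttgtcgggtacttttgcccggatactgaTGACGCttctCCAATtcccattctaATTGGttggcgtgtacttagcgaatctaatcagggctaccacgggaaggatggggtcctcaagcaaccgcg
H2-T23: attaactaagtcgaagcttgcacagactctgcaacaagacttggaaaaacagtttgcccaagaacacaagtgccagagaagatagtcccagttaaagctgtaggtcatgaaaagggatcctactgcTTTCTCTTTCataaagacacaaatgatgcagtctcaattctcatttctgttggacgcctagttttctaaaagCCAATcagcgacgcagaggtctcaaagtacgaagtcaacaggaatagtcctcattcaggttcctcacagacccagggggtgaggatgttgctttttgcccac
Tap1: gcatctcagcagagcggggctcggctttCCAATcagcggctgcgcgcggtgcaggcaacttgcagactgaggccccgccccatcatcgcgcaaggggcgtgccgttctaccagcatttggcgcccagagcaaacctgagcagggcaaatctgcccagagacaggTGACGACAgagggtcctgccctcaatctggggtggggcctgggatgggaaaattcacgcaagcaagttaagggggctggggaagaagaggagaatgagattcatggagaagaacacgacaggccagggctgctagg

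Of the 10 genes, 8 had an entry among these promoters, and Nlrc5 and Tap2 had none. The H2-K1 and H2-D1 promoters were identical at 211 of 239 aligned bases (88.3%), and the capitals came in the same order in both: enhancer A, IRF site, CRE, and a pair of CCAAT boxes on opposite strands. In H2-D1 enhancer A ran from position -171 to -162 and the CRE from -101 to -96, counted from the RefSeq start site as 0. H2-M3, which was 67.5% identical to H2-K1 over its aligned bases, held the IRF site, the CRE and 3 CCAAT boxes but no match to enhancer A. H2-T23, 57.2% identical to H2-K1, held a single CCAAT box and an IRF site of the other form, from -124 to -115. This site, like the IRF sites of H2-K1, H2-D1 and H2-M3, matched on the strand opposite to the gene. The Tap1 promoter, which serves the transporter gene on 1 strand and Psmb9 on the other, held a CRE from -86 to -79 and 1 CCAAT box.

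These matches differ in how common they are. GGGNATTCCC stood in 0.183% of 32851 RefSeq promoters, AAGTGAAA in 1.60%, TGACGNCA in 3.21%, GAAANNGAAA in 3.44%, TGACGC in 7.40% and CCAAT in 37.4%. The GC content of the 8 matched promoters lay between 44.0% in H2-M3 and 62.3% in H2-D1, beside a median of 52.7% over all promoters. H2-D1 held 19 CpG sites and H2-T23 held 5, beside a median of 7. A match is a description of the letters and no evidence of binding.

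All 10 genes had at least 1 peak in their region in both libraries, beside 57.1% of all protein-coding genes in the no-gradient library and 70.1% in the 50 µL library. All 10 also had a promoter peak, meaning a peak within 1 kb of an annotated start site, in both libraries (exact 95% interval of the share 69.2% to 100%), beside 43.7% of all protein-coding genes in the no-gradient library and 56.6% in the 50 µL library. These are not 10 separate peaks, because Tap1 and Psmb9 share theirs. In the 227 kb that the regions cover together there were 7.05 peaks per 100 kb in the no-gradient library and 16.7 in the 50 µL library. The regions of all protein-coding genes, built the same way, held 1.63 peaks per 100 kb in the no-gradient library and 5.46 in the 50 µL library. These densities were not adjusted for the length of the genes. Counted per gene region, the median was 2 peaks for the 10 genes and 1 for all protein-coding genes in the no-gradient library. In the 50 µL library it was 4.5 for the 10 genes and 2 for all.

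The presence of these promoter peaks was not matched by their height. The strongest promoter peak of each gene had a median percentile of 45.6 in the no-gradient library and 82.6 in the 50 µL library, where all protein-coding genes with a promoter peak had medians of 68.6 in the no-gradient library and 88.7 in the 50 µL library. H2-K1 was the only gene of the 10 above that median in the no-gradient library, and H2-K1 and H2-T23 were the only ones above it in the 50 µL library. In fold enrichment the strongest promoter peaks had medians of 4.71 in the no-gradient library and 3.79 in the 50 µL library, beside 5.72 for all such genes in the no-gradient library and 4.51 in the 50 µL library. Most of the 10 genes thus had promoter peaks below the median of genes with such a peak. The order depends on what they are set beside. Over all peaks of a list, 5 of the 10 genes in the no-gradient library and 10 of 10 in the 50 µL library stood above the median, and the median percentile of all promoter peaks, several to a gene, was 61.6 in the no-gradient library and 72.8 in the 50 µL library.

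**Figure D1:**
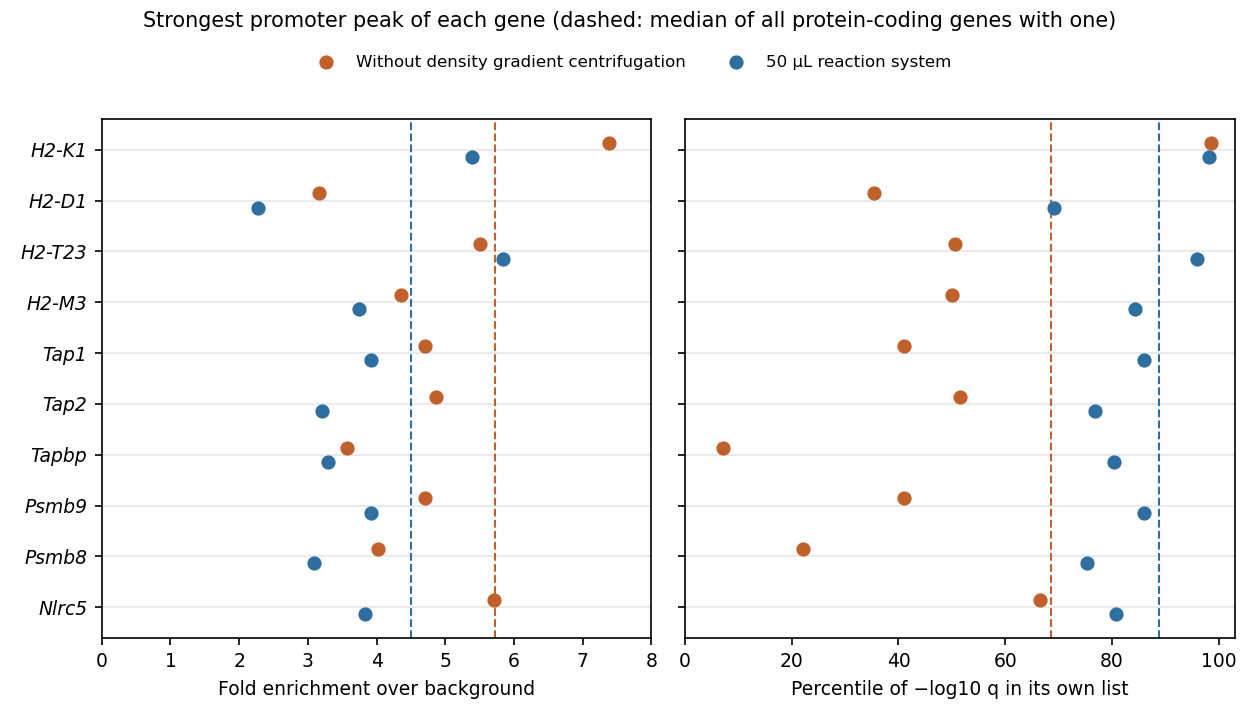
Fold enrichment (left) and percentile of −log10 q within its own list (right) of the strongest promoter peak of each gene, 1 point per library, with dashed lines at the median of all protein-coding genes that have a promoter peak. H2-K1 lies to the right of the line of its library in every case, at percentiles of 98.6 in the no-gradient library and 98.2 in the 50 µL library, and Tapbp has the lowest percentile in the no-gradient library (7.04).

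H2-K1 (ENSMUSG00000061232.16, chr17:33996017-34000347, minus strand) codes for the heavy chain of H-2K, a classical class I molecule. Its promoter peak covered chr17:34000308-34000719 in the no-gradient library, with a fold enrichment of 7.39 and a −log10 q of 31.5, and chr17:34000129-34000867 in the 50 µL library, with a fold enrichment of 5.39 and a −log10 q of 65.9. It ranked 348 of 25343 peaks in the no-gradient library and 1641 of 89382 in the 50 µL library. The summits lay 1 bp apart, 144 bp before the 5′-most start site in the no-gradient library and 143 bp before it in the 50 µL library. The enhancer A match of the printed sequence began 42 bp from the summit in the no-gradient library and 41 bp from it in the 50 µL library.

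A second strong H2-K1 peak lay outside the gene. It was intergenic in the annotation, with its summit 3918 bp past the 3′ end of the gene in the no-gradient library and 3948 bp past it in the 50 µL library. Its fold enrichment was 6.25 in the no-gradient library (percentile 68.7) and 6.27 in the 50 µL library (percentile 97.4), the highest of any peak in the 50 µL member regions. Of the 34-base words of this peak, 16.95% occurred more than once in the genome for the peak in the no-gradient library and 8.98% for the 50 µL peak. The 50 µL list held 3 further H2-K1 peaks, of which 1 lay past the 3′ end and 2 in the gene body, with fold enrichments of 2.66 to 2.78.

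H2-D1 (ENSMUSG00000073411.11, chr17:35262730-35267499, plus strand) codes for H-2D, the other classical heavy chain gene described here. Its promoter is much like that of H2-K1 in sequence, and its promoter peak was the lowest of the 10 in fold enrichment in both libraries. The peak covered chr17:35262905-35263296 in the no-gradient library, with a fold enrichment of 3.16 (percentile 35.5), and chr17:35262720-35263249 in the 50 µL library, with a fold enrichment of 2.27 (percentile 69.1). Its summits fell in an H2-D1 exon, 288 bp after the 5′-most GENCODE start site in the no-gradient library and 322 bp after it in the 50 µL library. Measured from the RefSeq start site used for the printed sequence, they lay 76 bp before the start in the no-gradient library and 42 bp before it in the 50 µL library.

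H2-D1 also had a pair of intergenic peaks upstream in both libraries. The nearer had its summit 3355 bp before the gene in the no-gradient library, with a fold enrichment of 3.66, and 3362 bp before it in the 50 µL library, with a fold enrichment of 2.58. The farther had its summit 4280 bp before the gene in the no-gradient library (fold enrichment 3.58) and 4294 bp before it in the 50 µL library (fold enrichment 2.32). Of the 34-base words of the farther peak, 15.2% occurred more than once in the genome in the no-gradient library and 30.1% in the 50 µL library. For the nearer peak the share was 0% in both. Both upstream peaks ranked above or close to the promoter peak: in the no-gradient library the percentiles were 55.5 for the nearer and 45.1 for the farther, and in the 50 µL library 78.2 for the nearer and 65.2 for the farther. The 50 µL list held 3 more H2-D1 peaks, with fold enrichments from 1.73 to 2.24.

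H2-T23 (ENSMUSG00000067212.8, chr17:36029773-36032855, minus strand) codes for Qa-1b, a non-classical class I molecule that is a ligand of CD94-NKG2 receptors. Its promoter peak was of middle rank in the shorter list and among the tallest in the longer one. In the no-gradient library it was 251 bp wide, with a fold enrichment of 5.51 and a percentile of 50.5. In the 50 µL library it was 1251 bp wide, with a fold enrichment of 5.84 and a percentile of 96.0. The summits lay 17 bp apart, and the IRF match of the printed sequence began 40 bp from the one in the no-gradient library and 57 bp from the 50 µL one. Both summits fell in an intron of the annotated gene A930015D03Rik. Only weak peaks stood elsewhere in its region, 2 in the 50 µL list at percentiles of 2.82 and 25.2.

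H2-M3 (ENSMUSG00000016206.6, chr17:37270220-37274484, plus strand) codes for a class I molecule known for presenting N-formylated peptides. It had the same pair of peaks in both libraries and no others. The peak at the start site had a fold enrichment of 4.36 in the no-gradient library (percentile 50.1) and 3.74 in the 50 µL library (percentile 84.3), with summits 5 bp apart. The other lay in an exon, with its summit 797 bp after the start site in the no-gradient library, where it had a fold enrichment of 4.11, and 830 bp after it in the 50 µL library, where it had 3.62. The pair thus differed little in height within each list.

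The heavy chain genes lie in a family of near-copies, so the uniqueness of their sequence was measured as the share of 34-base words that occur more than once in the genome. In the 1 kb around the 5′-most start site this share was 14.8% for H2-K1, 11.3% for H2-D1, 54.6% for H2-T23 and 5.58% for H2-M3. Over the promoter peaks themselves it was 14.0% in the no-gradient library and 16.4% in the 50 µL library for H2-K1, and 10.03% in the no-gradient library and 8.25% in the 50 µL library for H2-D1. For H2-T23 it was 28.9% in the no-gradient library and 44.3% in the 50 µL library, and for the start site peak of H2-M3 it was 0% in both. Over 1016 other 50 µL promoter peaks of chromosome 17 the median was 0%, and 9.06% of those peaks passed 10%. The methods name no filter on mapping quality, so reads in the repeated parts of H2-K1, H2-D1 and H2-T23 cannot be placed with certainty on 1 copy, and the heights of these 3 genes are uncertain. The part of repeated sequence in their peaks was not tested.

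Of all protein-coding genes, 43.7% had a promoter peak in the no-gradient library and 56.6% in the 50 µL library. Among the other class I heavy chain genes of the H2 complex a promoter peak was rare: 1 of 20 had one in the no-gradient library and 4 of 20 in the 50 µL library. Only H2-T22, a non-classical gene, had one in both lists, with a fold enrichment of 7.71 in the no-gradient library and 10.56 in the 50 µL library. The others in the 50 µL library were H2-T3 (4.30), H2-Q2 (3.56) and H2-T24 (2.77). The part of repeated sequence in these calls was not tested, and a few of its values are given here. H2-Q6 and H2-Q7 had no peak in their regions at repeated shares of 74.9% and 61.4%, and H2-Q4 and H2-Q10 had none at 8.07% and 8.27%, while H2-T22 had its peaks at 37.2%.

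**Figure D2:**
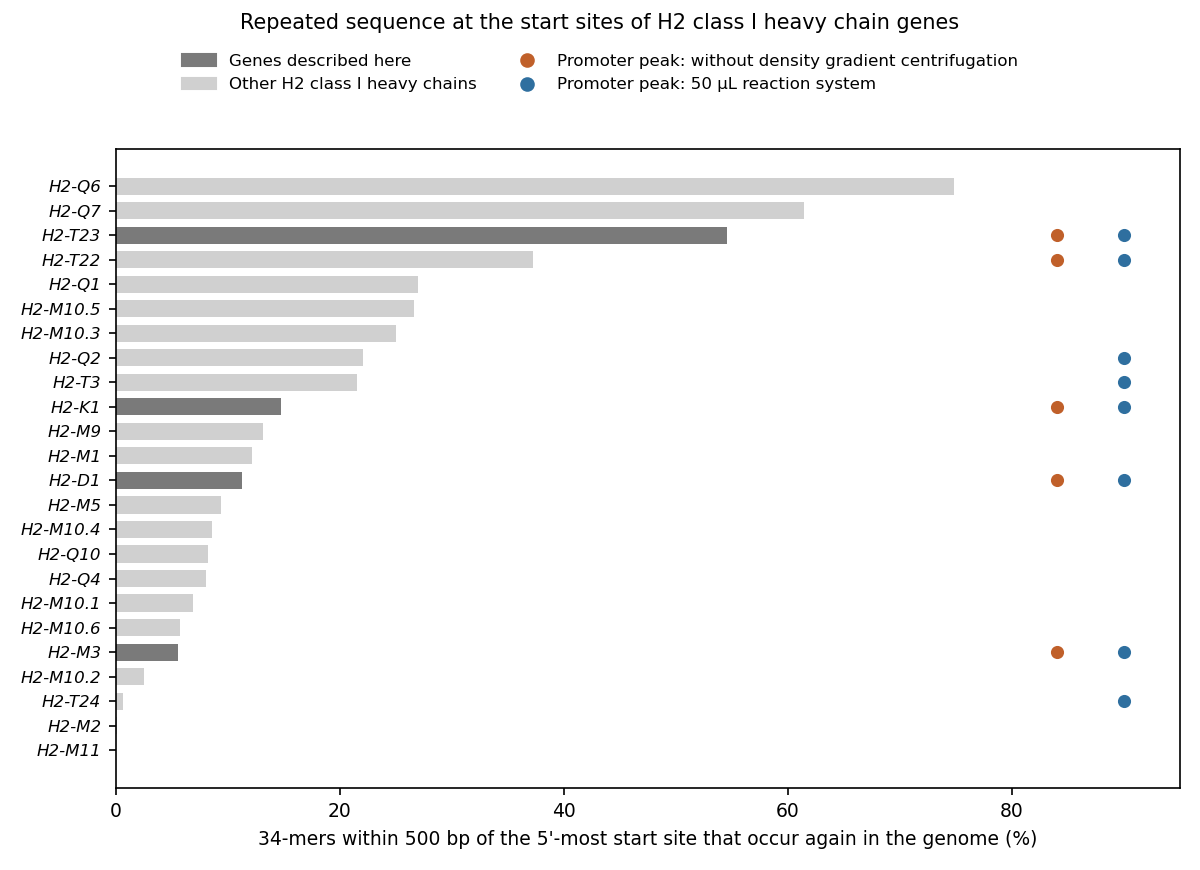
Share of 34-base words within 500 bp of the 5′-most start site that occur again in the genome (bars, percent), for the 4 heavy chain genes described here and the 20 others of the H2 complex, with a dot for each library that had a promoter peak. A dot stands for a peak within 1 kb of any annotated start site, which can lie outside the window of the bar, as for H2-Q2. Genes with peaks in both lists range from 5.58% (H2-M3) to 54.6% (H2-T23), and genes with no dot stand above and below them. The part of repeated sequence in these calls was not tested.

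Tap1 (ENSMUSG00000037321.17, chr17:34187553-34197225, plus strand), a subunit of the peptide transporter, and Psmb9 (ENSMUSG00000096727.3, chr17:34181987-34187764, minus strand), the immunoproteasome subunit also called LMP2, are transcribed away from each other. A single peak in each list covered the RefSeq start sites of both genes, and the one in the no-gradient library ended before the 5′-most GENCODE start site of Psmb9. In the no-gradient library it ran over chr17:34187286-34187573, with a fold enrichment of 4.71 and a percentile of 41.0. In the 50 µL library it ran over chr17:34186941-34187955, 1015 bp, with a fold enrichment of 3.92 and a percentile of 86.0. The summits lay 80 bp apart, 120 bp before the 5′-most Tap1 start site in the no-gradient library and 40 bp before it in the 50 µL library. The CRE of the printed Tap1 sequence fell between them, 37 bp from the summit in the no-gradient library and 43 bp from the 50 µL summit. This was the only peak in the Psmb9 region in either list. In the body of Tap1 the 50 µL list also held an intronic peak with a fold enrichment of 2.25, which was not in the no-gradient library. Of the 34-base words of this intronic peak 0.578% were repeated in the genome. Of its 17-base words 95.3% were repeated, with a median of 79 copies.

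Psmb8 (ENSMUSG00000024338.15, chr17:34197721-34201454, plus strand), the immunoproteasome subunit LMP7, had its strongest promoter peak at different places in the lists. Its strongest 50 µL promoter peak covered chr17:34197665-34198506 with a fold enrichment of 3.09 (percentile 75.3), and its summit fell in a Psmb8 exon. No peak stood there in the no-gradient library. The only promoter peak of that list was chr17:34196573-34196854, in a Tap1 exon with its summit 992 bp before the 5′-most Psmb8 start site, at a fold enrichment of 4.02 and a percentile of 22.2. It overlapped a wider 50 µL peak with a fold enrichment of 2.70 (percentile 61.3). With the promoter narrowed to 500 bp around a start site, Psmb8 had no promoter peak in the no-gradient library and kept the one of the 50 µL list. Psmb8 was the one gene of the 10 that the narrower window removed.

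Tap2 (ENSMUSG00000024339.12, chr17:34203527-34216321, plus strand), the other transporter subunit, had 1 peak in the no-gradient library and 4 in the 50 µL list. The peak in both lists lay in a Tap2 exon, with summits 34 bp apart, at a fold enrichment of 4.86 in the no-gradient library (percentile 51.5) and 3.21 in the 50 µL library (percentile 76.8). A pair of intronic peaks, with fold enrichments of 2.61 and 3.54, was in the 50 µL list only. An intergenic peak 3013 bp past the 3′ end was likewise in that list only, and with a fold enrichment of 5.96 it was taller than the Tap2 promoter peak. Of its 34-base words 29.0% were repeated in the genome, against 0% in the promoter peak of either list.

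Tapbp (ENSMUSG00000024308.15, chr17:33915899-33929292, plus strand) codes for tapasin, which bridges TAP and the class I heavy chain. Its promoter peaks were spread over several annotated start sites. The strongest 50 µL peak, chr17:33919247-33919865, covered the RefSeq start site with a fold enrichment of 3.29 (percentile 80.3), and there was no peak at that site in the no-gradient library. The strongest in the no-gradient library was an intronic peak at chr17:33920674-33921095, 419 bp from an internal start site, with a fold enrichment of 3.57 and a percentile of 7.04, the lowest among the 10 genes. In the 50 µL library the same site had a fold enrichment of 2.97. Another intronic peak, 995 bp before an internal start site, was in the 50 µL list only, with a fold enrichment of 2.92.

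Tapbp lies among close neighbours, and 2 peaks of its region in the no-gradient library and 3 in the 50 µL library lay within 1 kb of a start site of theirs. In both lists a peak at the 5′-most Tapbp start site also lay within 1 kb of a start site of Zbtb22, a zinc finger gene, with a fold enrichment of 3.43 in the no-gradient library and 3.06 in the 50 µL library. Past the 3′ end a peak at the promoter of Rgl2, a Ral guanine nucleotide exchange factor gene, had a fold enrichment of 4.95 in the no-gradient library and 3.38 in the 50 µL library. A further Rgl2 promoter peak, in an Rgl2 intron, was in the 50 µL list only (fold enrichment 2.70). Accessibility there cannot be assigned to Tapbp from peak positions.

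Nlrc5 (ENSMUSG00000074151.13, chr8:94434356-94527272, plus strand) codes for the NOD-like receptor family protein that activates class I promoters, and is the only gene of the 10 outside chromosome 17. Its promoter peak had a fold enrichment of 5.71 in the no-gradient library, with its summit 3 bp before the start site, and 3.84 in the 50 µL library, with its summit 143 bp from the nearest start site. The no-gradient summit fell in an exon of the annotated gene 9330175E14Rik, and the 50 µL summit in introns of both genes. Accessibility there cannot be assigned to Nlrc5 alone from peak positions. At a percentile of 66.5 the promoter peak was second to H2-K1 in the no-gradient library. It was 6th of the 10 genes in the 50 µL library, at 80.8. An intronic peak at chr8:94492120-94492379 was in both lists, with a fold enrichment of 5.75 in the no-gradient library and 4.67 in the 50 µL library. It exceeded the promoter peak in fold enrichment in both lists and stood below it in percentile, at 43.7 in the no-gradient library and 76.8 in the 50 µL library.

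The 50 µL list held 6 further Nlrc5 peaks, 5 in introns and 1 past the 3′ end, with fold enrichments of 2.53 to 3.83. In 1 of them, at chr8:94502612-94502819, 60.6% of the 34-base words were repeated, with a median of 17870 copies. Its part in the peak was not tested. The other intronic and 3′ peaks of Nlrc5 had repeated shares of 0% to 9.74%. In words of 17 bases, the shortest read length in the methods, shares were higher. At chr8:94451973-94452234 in the 50 µL list 88.2% of these were repeated, with a median of 6 copies. Over the other 50 µL promoter peaks of chromosome 17 the median share for 17 bases was 37.7%.

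Every one of the 16 peaks in the no-gradient library overlapped a 50 µL peak (100%, exact 95% interval 79.4% to 100%), beside 95.3% of all peaks of that list. In the other direction 16 of the 38 peaks of the 50 µL library overlapped a peak in the no-gradient library (42.1%, 26.3% to 59.2%), beside 26.3% of all its peaks. The share of the 16 peaks is near that of the whole list. The summits of the 16 overlapping pairs lay a median of 33.5 bp apart, and 11 of 16 (68.8%) lay within 50 bp, beside a median of 50.0 bp and 50.3% over all 24140 peaks that overlapped. Mostly the 50 µL peak was the wider of a pair, and 12 of the 16 peaks lay wholly inside their 50 µL counterpart.

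The 22 peaks in the 50 µL list only were lower in the median than the 16 in both. Their median fold enrichment was 2.79 against 3.50, and their median percentile 45.7 against 77.5 among 50 µL peaks. Single peaks departed from this, such as the one past the 3′ end of Tap2 at 5.96. Of the 22, 8 lay within 1 kb of a start site of one of the 10 genes. These included the start sites of Psmb8 and Tapbp described above. Over all 89382 peaks of the 50 µL list, 19889 lay within 1 kb of a start site of a protein-coding gene. No such values were computed over all peaks in the 50 µL list only. The values are thus not shown to be particular to the 10 genes.

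Motif matches were counted in the 300 bp around the summit of each promoter peak of the 10 genes, 11 peaks in the no-gradient library and 19 in the 50 µL library. GAAANNGAAA stood in 4 of 11 windows in the no-gradient library (Nlrc5, Tap2, H2-T23 and H2-M3), beside 3.05% of all promoter peaks of that list. It stood in 5 of 19 windows in the 50 µL library (Tapbp, Psmb8, Tap2, H2-T23 and H2-M3), beside 4.00% of all promoter peaks. The Psmb8 match lay in the window of the peak in a Tap1 intron, whose summit was 1266 bp before the Psmb8 start site. The window of the Psmb8 start site peak held no such match. The Nlrc5 match lay 40 bp from the summit in the no-gradient library and was not whole within the window in the 50 µL library, as the summits of the 2 peaks were 191 bp apart. GGGNATTCCC stood in 2 windows of each list, those of H2-K1 and H2-D1, beside 0.188% of promoter peaks in the no-gradient library and 0.246% in the 50 µL library. This pattern was chosen from what is known of class I promoters. The promoters of H2-K1 and H2-D1 are 88.3% identical, so these 2 windows are not separate samples. The windows of Tap2 and of the shared Tap1 and Psmb9 peak held TGACGNCA in both lists, beside 5.27% of promoter peaks in the no-gradient library and 3.23% in the 50 µL library.

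The elements differed between the genes. Among the 10 genes enhancer A was read at the classical heavy chain genes only, and TGACGNCA at Tap1, Psmb9 and Tap2 only. The other CRE form, TGACGC, was read at H2-K1, H2-D1, H2-M3 and Tap2 in both lists. AAGTGAAA was read at the same genes in both lists and at Tapbp in the 50 µL list. Of all promoter peaks, TGACGC stood in 11.7% in the no-gradient library and 8.36% in the 50 µL library. AAGTGAAA stood in 1.93% in the no-gradient library and 2.16% in the 50 µL library. Both forms were added after the class I promoters had been read, so their presence at H2-K1, H2-D1 and H2-M3 was already known. At H2-M3 both IRF forms matched in the window of the exon peak, and the AAGTGAAA of the printed promoter lay outside the window around the start site peak. CCAAT stood in 6 of 11 windows in the no-gradient library and 10 of 19 in the 50 µL library, beside 36.8% of all promoter peaks in the no-gradient library and 33.8% in the 50 µL library. The GC box (GGGCGG) stood in 3 of 11 windows in the no-gradient library, beside 56.7%, and in 5 of 19 in the 50 µL library, beside 43.2%. This count turned on the window: over whole peaks it was 4 of 11 beside 62.9% in the no-gradient library and 11 of 19 beside 53.6% in the 50 µL library, and within 200 bp 2 of 11 beside 45.4% in the no-gradient library and 1 of 19 beside 33.97% in the 50 µL library. A classical κB site (GGGANTTTCC) stood in 1 window, that of Tapbp in the 50 µL library, 13 bp from the summit, beside 0.453% of its promoter peaks. The GAS site of STAT proteins (TTCNNNGAA), which reads the same on both strands, stood in 0 of 11 windows in the no-gradient library and in 1 of 19 in the 50 µL library, that of the Psmb8 start site. The PU.1 site (GAGGAANT) stood in 0 of 11 windows in the no-gradient library and in 1 of 19 in the 50 µL library, that of Tapbp. Of all promoter peaks, 7.16% in the no-gradient library and 7.02% in the 50 µL library held the GAS site, and 7.30% in the no-gradient library and 8.33% in the 50 µL library the PU.1 site. Over whole peaks the PU.1 site stood in 0 of 11 in the no-gradient library, beside 9.26%, and in 4 of 19 in the 50 µL library, beside 14.1%. Windows of neighbouring peaks of 1 gene are not separate samples, and no test was made.

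The rest of the pathway was read from lists written from textbook knowledge. Of 64 further genes found in the annotation, 40 in the no-gradient library and 46 in the 50 µL library had a promoter peak. The share over all protein-coding genes, to be set beside this count and those of the lists below, was 43.7% in the no-gradient library. It was 56.6% in the 50 µL library. The light chain, the chaperones and the trimming enzymes had one at 13 of 14 genes in the no-gradient library, all but Bcap31, an endoplasmic reticulum export factor, and at 14 of 14 in the 50 µL library. B2m, which codes for the light chain of class I molecules, had a fold enrichment of 4.48 in the no-gradient library and 2.82 in the 50 µL library. Thop1, a cytosolic peptidase gene, had the highest promoter peak of these 14 genes in fold enrichment, at 10.12 in the no-gradient library and 8.29 in the 50 µL library.

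All 8 other proteasome genes had a promoter peak in both libraries. Psmb10, the inducible subunit not among the 10 genes, had a fold enrichment of 5.69 in the no-gradient library and 5.57 in the 50 µL library. The standard catalytic subunits that Psmb8, Psmb9 and Psmb10 replace are Psmb5, Psmb6 and Psmb7. In the no-gradient library their fold enrichments were 8.49 for Psmb5, 6.41 for Psmb6 and 5.86 for Psmb7, and in the 50 µL library 5.06 for Psmb5, 5.40 for Psmb6 and 4.22 for Psmb7. All 3, and Psmb10, stood above Psmb8 and Psmb9 in fold enrichment in both lists. The median percentile of the 8 was 67.8 in the no-gradient library and 91.5 in the 50 µL library.

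Of 17 regulators of class I genes, 16 had a promoter peak in the no-gradient library, all but Creb1, and 17 in the 50 µL library. Irf9, a subunit of the interferon-activated factor ISGF3, had the highest fold enrichment of them in both, 7.45 in the no-gradient library and 6.97 in the 50 µL library. Irf1, an interferon-induced activator, had 3.58 in the no-gradient library and 3.80 in the 50 µL library, and Nfkb1, a subunit of NF-κB, had 3.97 in the no-gradient library and 6.94 in the 50 µL library. Rfxank, a subunit of the RFX complex, had 5.93 in the no-gradient library and 5.95 in the 50 µL library. Of 5 class I-like genes outside the H2 complex, Cd1d1 and Mr1, which present lipids and vitamin B metabolites, had a promoter peak in both libraries, and Hfe in the 50 µL library only. Fcgrt and Azgp1 had none in either.

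**Figure D3:**
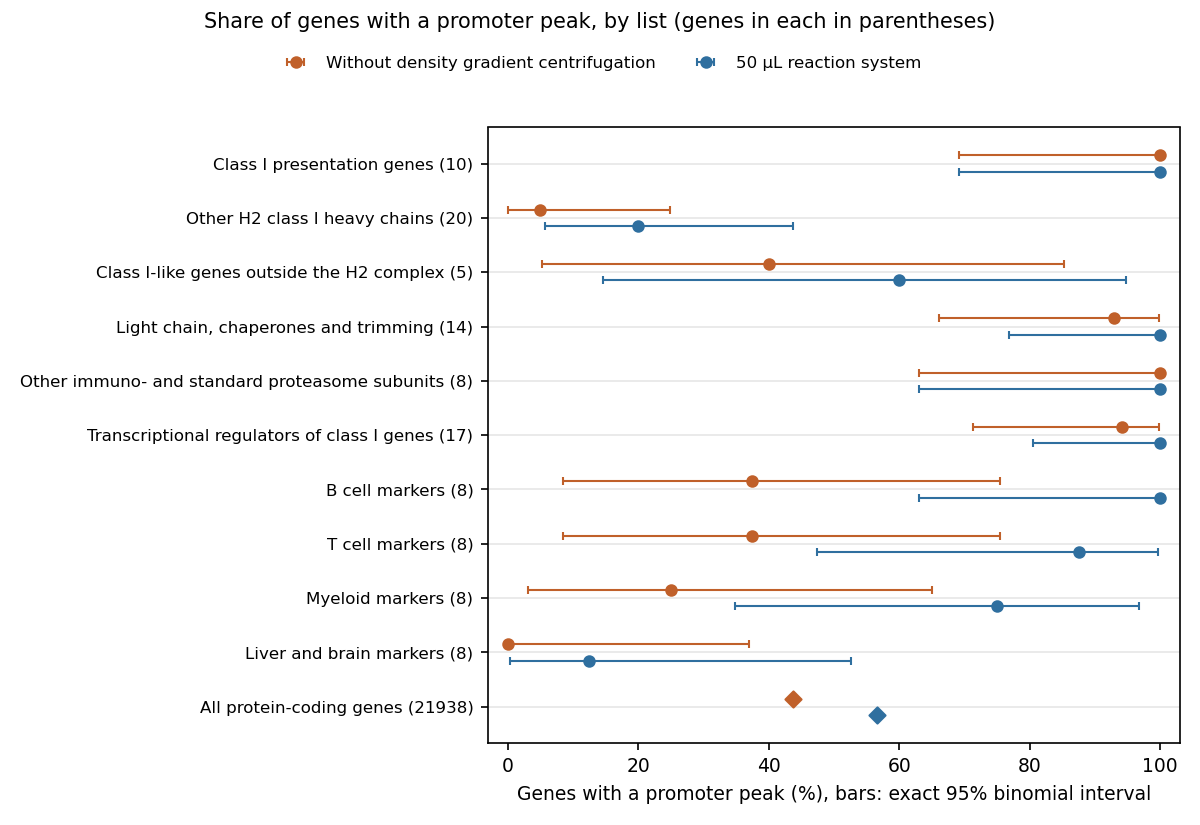
Percent of genes in each list with a promoter peak in each library, with exact 95% binomial intervals over genes, and all protein-coding genes as diamonds at 43.7% in the no-gradient library and 56.6% in the 50 µL library. The class I presentation genes, the chaperones, the proteasome genes and the regulators sit at 92.9% or above, and the other H2 heavy chains at 5.00% in the no-gradient library and 20.0% in the 50 µL library.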

How the data were processed

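Peak lists of 2 scFFPE-ATAC libraries of mouse FFPE spleen, called per library on mm10, were used. As the methods describe it, the authors used BWA mem 0.7.17 for alignment, samtools 1.17 for sorting, an own script against duplicates, MACS2 2.1.2 for peaks (q-value limit 0.01, no model and no shift) and bedtools 2.30.0 to take out blacklisted regions. BWA, SAMtools, hg38 and mm10 are named in the submitters' processing notes. It is not stated whether barcodes outside the cell filter contributed reads.

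The deposited lists give for each peak an integer score for display that was left aside. Fold enrichment in the deposited lists is the ratio of summit pileup to local background that MACS2 computed. For the same summit the authors' lists hold MACS2's p and q as −log10 p and −log10 q. They also give the offset of the summit from the peak start. These values depend on depth, which is unknown.

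Peaks were assigned to GENCODE vM21 genes by overlap of at least 1 bp with the gene body plus 5 kb, and to promoters within 1 kb of any annotated start site. Percentiles are of −log10 q within a list. Intervals are exact Clopper-Pearson 95% intervals and cover counting error over genes or peaks only. Motifs were searched on both strands, and words of 34 bases, or of 17, the shortest read length in the methods, were counted over the primary assembly. Promoter sequences are those of RefSeq. Tables were joined with pandas 2.3.3 under Python 3.11.15, intervals came from scipy 1.17.1 and alignments from Biopython 1.88, and assignment was tested on simulated peaks. In the 50 µL list 169 peaks off the numbered and sex chromosomes had no gene assigned. The genes and lists were chosen with earlier results of these data known. All 10 genes are named with their peaks, some of the weaker ones as counts and ranges, and of each further list up to 4 genes with the highest 50 µL −log10 q, up to 4 that had such a peak in the shorter list and those that lack a promoter peak where 5 or fewer did, together with neighbours whose start site a peak reached. Cd1d2, H2-T10 and H2-Bl were not protein-coding genes of the annotation. Alternatives were other gene regions and promoter windows, stricter peak thresholds, an equal length of the lists, other overlap rules, assignment by summit and other motif windows.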

Additional observations from a re-analysis of the deposited data

How the results depend on the processing

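There were 102 recomputed counts, shares and medians, over the 10 genes and, for the count of promoter peaks, also over the further pathway genes. Of these, 89 stayed within 1.5 times the reported count or within the 95% interval of the reported share or median. The counts of the pathway genes all stayed. Some of the 89 could not move, because reducing the 50 µL list left the no-gradient counts and medians as they were. The cause of the 13 that moved was not tested, beyond that stricter limits keep fewer peaks. With peaks of a fold enrichment of at least 4 only, the 50 µL list kept a region peak at 4 genes, a promoter peak at 2 (H2-K1 and H2-T23) and 5 distinct peaks, with a median fold enrichment of 5.84. In the no-gradient library that limit left a promoter peak at 8 genes, all but H2-D1 and Tapbp. Shares of overlapping peaks were then 36.4% in the no-gradient library and 80.0% in the 50 µL library. With the 50 µL list reduced to as many peaks as the shorter list it held 16 distinct peaks with a median fold enrichment of 3.68, a median percentile of 44.7 and 9 genes with a promoter peak, H2-D1 being lost, and 75.0% of peaks overlapped in both directions. At a reciprocal overlap of 50% the shares were 50.0% in the no-gradient library and 21.1% in the 50 µL library. Of 88 motif counts, 27 moved beyond 1.5 times with other windows, stricter thresholds or the reduced list. No paired analysis was possible because there was 1 library per condition, and for the same reason no library could be left out. With 10 genes, 1 library per condition and unknown depth, peak heights and the number of peaks limit every value, and a peak missing from the shorter list is not shown to be closed there, since depth and preparation cannot be told apart.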
